A study of Mus musculus with 4 samples.

Results

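Insulin and insulin-like growth factor 1 (IGF1) signal through a short relay of proteins, and 9 of its genes are described here in the CD45+ immune cells of mouse adipose tissue. The 9 are the growth factor Igf1, the receptors Insr and Igf1r, the adaptors Irs1 and Irs2, the PI3K regulatory subunit Pik3r1, the kinases Akt1 and Akt2, and the transcription factor Foxo1. They were chosen by name, and all 9 were found among the 35869 genes listed and passed the filter on low values. The cells came from the epididymal white adipose tissue (eWAT) of male WT C57BL/6 mice, which were fed from 8 weeks of age for 12 weeks. The normal diet (ND) held 10% of its calories as fat and the high-fat diet (HFD) 60%, with 2 samples of each diet. CD45 microbeads had enriched the immune cells from the stromal vascular fraction, and how many mice went into a library is not stated, so the p-values measure only the spread between these samples.

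In this relay the bound receptor phosphorylates the IRS adaptors, these recruit PI3K through its regulatory subunit, and the lipid that PI3K makes brings AKT to the membrane. AKT then phosphorylates FOXO1 and keeps it out of the nucleus, so that FOXO target genes are turned down when insulin is present. In adipose tissue the pathway is best known from adipocytes, where it drives glucose uptake. Macrophages carry the same parts, with IRS2 as their best known adaptor, and are also a source of IGF1 in tissues. FOXO1 in lymphocytes keeps genes of homing and survival on.

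The values are TPM, a gene's share of a sample's transcripts after its reads were divided by its length, so that levels may be compared between genes. From the values of short microRNA genes, 1 read per kb stood for between 0.0607 and 0.0710 TPM, or approximately 37600000 to 46800000 counted reads a sample. By this measure the 9 genes rested on approximately 248 reads (Irs1 in ND replicate 1) to 12600 reads (Irs2 in ND replicate 2), and counting error was at most 6.4% of a value. Ptprc, the gene of CD45, was at 54.5 and 59.4 TPM with ND and 55.3 and 53.7 TPM with HFD. Of the 4 general immune cell genes 1 was called lower, Coro1a, at 298.0 and 293.7 TPM against 169.0 and 192.4 TPM, and 10 macrophage genes together held 16218 to 19987 TPM. Genes of other cells were present too, with 6 endothelial genes at 225 to 272 TPM together, 8 fibroblast genes at 609 and 653 TPM with ND and 3096 and 6201 TPM with HFD, and 6 spermatid genes at 6577 TPM in HFD replicate 1 against 1757 to 2023 TPM in the other samples.

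The stretches before the start sites of 3 members are shown because Foxo1 was the one member that passed both limits of the test below, and because the adaptors Irs1 and Irs2 share a motif pair while their levels lay far apart. They are the 250 bases before the RefSeq start on the strand of the gene, 5′ to 3′, in GRCm38.p6, the assembly called mm10. Capitals mark any of 5 motifs on either strand, namely GTAAACA (bound by FOXO factors), CAAAACA or TGTTTTG on the other strand (the core of insulin response elements), CACGTG (an E-box), CCAAT and GGGCGG (a GC box). The windows, with the 50 bases after the start that are not printed, lie at chr3:52268087-52268386 on the plus strand for Foxo1, chr1:82291390-82291689 on the minus strand for Irs1 and chr8:11008880-11009179 on the minus strand for Irs2.
Foxo1: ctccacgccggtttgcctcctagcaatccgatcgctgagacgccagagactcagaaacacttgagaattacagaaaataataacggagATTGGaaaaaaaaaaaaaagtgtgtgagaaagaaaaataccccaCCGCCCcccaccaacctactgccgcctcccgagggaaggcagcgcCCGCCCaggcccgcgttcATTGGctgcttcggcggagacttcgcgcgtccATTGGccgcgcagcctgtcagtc
Irs1: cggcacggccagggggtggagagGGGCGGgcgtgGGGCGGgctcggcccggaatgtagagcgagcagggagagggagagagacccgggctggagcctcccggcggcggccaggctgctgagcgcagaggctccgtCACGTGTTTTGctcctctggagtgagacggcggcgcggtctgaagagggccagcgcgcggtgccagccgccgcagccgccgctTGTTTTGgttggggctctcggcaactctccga
Irs2: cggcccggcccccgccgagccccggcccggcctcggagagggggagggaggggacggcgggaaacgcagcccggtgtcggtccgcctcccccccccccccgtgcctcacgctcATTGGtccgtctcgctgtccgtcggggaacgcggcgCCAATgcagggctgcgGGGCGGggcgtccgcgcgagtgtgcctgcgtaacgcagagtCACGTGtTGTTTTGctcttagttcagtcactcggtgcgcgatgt

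The Foxo1 window held CCAAT 3 times and the GC box 5 times, of which 3 lay in the bases after the start, and it held none of the other motifs. In the Irs1 and Irs2 windows an E-box stood beside TGTTTTG. In Irs1 the E-box began at base 136 and TGTTTTG at base 140 of the window, sharing bases, and a further TGTTTTG began at base 219. In Irs2 they began at bases 207 and 214. Counted over 32851 windows of the same length, GTAAACA was in 3.65%, CAAAACA in 6.28%, CACGTG in 7.15%, CCAAT in 37.4% and GGGCGG in 35.7%. An E-box and a TGTTTTG whose first bases were at most 10 apart were found in 9 of the 32851 windows (0.0274%), a pair that was looked for after the Irs1 and Irs2 windows had been read. Such matches describe letters and not bound sites. Windows were at hand for 8 of the 9 members, and among the 13 windows of these 8 genes GTAAACA was in 1, an Akt1 window.

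Among the 9 genes Akt1 and Irs2 were the most abundant, with means over the 4 samples of 101 and 98.4 TPM, levels above those of 90.3% and 90% of the 16849 genes tested. Foxo1 (27.9 TPM), Pik3r1 (23.1 TPM) and Akt2 (18.8 TPM) followed, then Igf1 (9.45 TPM) and Insr (7.32 TPM). Igf1r (2.25 TPM) and Irs1 (2.02 TPM) were the lowest. Akt1 and Irs2 overlapped in their values, as did Foxo1 with Pik3r1 and with Akt2, Pik3r1 with Akt2, and Igf1r with Irs1. Irs2 was above Akt1 in both ND samples and below it in both HFD samples. Every Akt2 value was above every Igf1 value, and every Igf1 value above every Insr value.

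**Figure D1:**
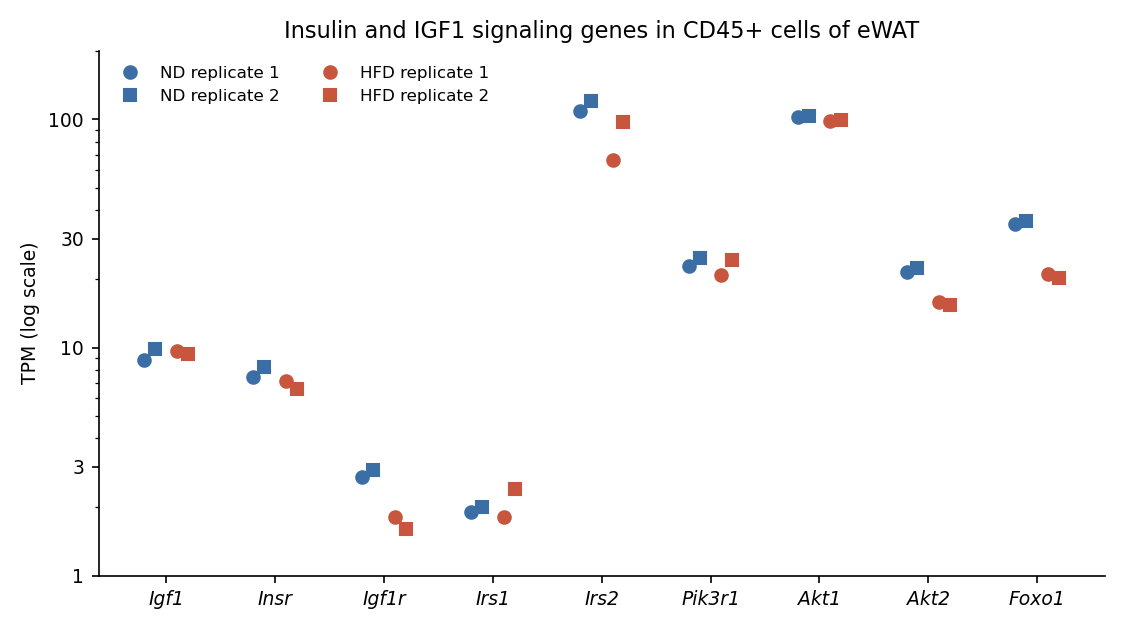
TPM of the 9 genes, on a log axis, in each of the 2 ND (blue) and 2 HFD (red) samples, with circles for replicate 1 and squares for replicate 2. Foxo1, Akt2 and Igf1r show the HFD points clearly below the ND points, Irs2 shows HFD replicates far apart, and Akt1 and Igf1 are nearly level.

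The comparison of HFD with ND was made on log2(TPM + 1) with limma over the 16849 genes that had at least 1 TPM in at least 2 samples. A gene was called when its Benjamini-Hochberg adjusted p was under 0.05 and its change at least 1.5-fold on that scale. Of the 9 members, 1 was called lower (Foxo1) and 0 were called higher, where 10.3% of all genes tested were called lower and 8.08% higher. On the adjusted p alone 2 members were lower, Foxo1 and Akt2, beside 14.1% of all genes. Among the 9, 3 had an unadjusted p under 0.05 in limma, the third being Igf1r, beside 42.3% of all genes. In 6 of the 9 both HFD values lay below both ND values, which held for 32.8% of all genes tested, and in 0 of 9 both lay above, beside 34.1% of all genes. The median log2 fold change of the 9 was -0.16, and that of all genes was 0.06. With 2 samples a diet the smallest p of an exact two-sided permutation test is 0.333, which is the value for each of the 6 genes without overlap. Less RNA of a gene per cell and fewer cells that express it cannot be told apart in these bulk samples.

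Foxo1, the transcription factor at the end of the relay, fell in HFD. It stood at 34.7 and 35.7 TPM with ND against 21.1 and 20.1 TPM with HFD. The diets did not overlap, and the replicates of a diet were 1 TPM apart. The mean fell by 41.5%, from 35.2 ± 0.707 to 20.6 ± 0.707 TPM (SD, n = 2 each). The log2 fold change was -0.75 (standard error 0.06, 95% interval -0.92 to -0.57, adjusted p = 0.00962 in limma). Without ND replicate 1 or 2 it was -0.77 and -0.73, with adjusted p of 0.167 and 0.161 in limma, in fits where 0 of the 16849 genes were called (3862 and 4024 had an unadjusted p under 0.05). Foxo1 (ENSMUSG00000044167) lies at chr3:52268336-52353221 on the plus strand (mm10, GENCODE vM21, as for the other members), and the antisense gene Gm20402, which is not listed here, shares 674 bases of its exons. Whether reads were counted by strand is not given, so reads of such pairs may not have been told apart.

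Lymphocytes express Foxo1, and their marker genes moved with it. The 6 T cell genes listed (Cd3d, Cd3e, Cd3g, Cd247, Lck and Cd28) were all called lower and held 159 and 176 TPM together with ND against 25.4 and 40 TPM with HFD. Of 7 B cell genes 6 were called lower (Cd22 was called higher), with sums of 136 and 134 TPM with ND and 27.6 and 32.2 TPM with HFD. All 5 NK cell genes were called lower, from 184 and 188 TPM to 38.1 and 30.4 TPM. None of these genes was at 0 in all samples, and the part that these cells had in the lower Foxo1 was not tested. Lists of other immune cells moved both ways, with 5 of 5 neutrophil genes called lower (261 and 284 TPM together against 33.3 and 34.9 TPM, a sum in which Mmp9 alone went from 191.2 and 190.6 TPM to 5.3 and 4.6 TPM, while the median log2 fold change of the 5 was -1.31) and 6 of 6 genes of resident macrophages (sums given with Igf1), while 8 of 8 genes of lipid-associated macrophages were called higher. Of 10 general macrophage genes 2 were called higher and 2 lower, and the part of each of these lists was not tested either. The 3 genes whose 4 centred log2 values lay closest to those of Foxo1 were Rgag4 (distance 0.00823), Stat2 (0.0102) and Rab11fip4 (0.0186). Stat2, a factor of interferon signaling, had 16.9 and 17.4 TPM with ND and 10 and 9.6 TPM with HFD.

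The other FOXO genes differed less between the diets. Foxo3 had 44.2 and 47.9 TPM with ND and 50.9 and 48.8 TPM with HFD (a log2 fold change of 0.11, adjusted p = 0.296 in limma). Foxo4 had 27.0 and 26.1 TPM with ND against 21.5 and 22.0 TPM with HFD (-0.28, adjusted p = 0.0477), which is short of 1.5-fold, and Foxo6 was at most 0.8 TPM. Foxo1 made up 32.6% and 32.3% of the summed FOXO TPM with ND and 22.5% and 22% in HFD. The ratio of Foxo1 to Foxo3 was 0.785 and 0.745 in ND and 0.415 and 0.412 in HFD, a log2 difference of -0.89 where the SD within a diet was at most 0.05. In all 5 ratios that were compared (the other 4 stand below) the diets did not overlap, and each had an exact permutation p of 0.333, also after adjustment over the 5. Of all single genes tested, both HFD values lay below both ND values in 32.8% and above in 34.1%, so such separation was common.

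Genes that FOXO factors are known to drive did not move one way. Klf2, a factor of lymphocyte quiescence and of endothelium, fell from 1644.9 and 1557.5 TPM to 748.7 and 707.6 TPM (log2 fold change -1.14, adjusted p = 0.00536 in limma). Sesn3, a stress-response sestrin, also fell (-0.82, adjusted p = 0.0235 in limma). Il7r, the receptor chain for interleukin 7, rose from 26.4 and 27.8 TPM to 122.2 and 114.4 TPM (2.09, adjusted p = 0.00415), and Gadd45a, a growth arrest gene, rose as well (0.71, adjusted p = 0.049). Of the 14 genes tested in this list, which also holds the other FOXO factors, 2 were called higher and 2 lower. Of all genes tested, 8.08% were called higher and 10.3% lower. In limma 10 of the 14 had an unadjusted p under 0.05, where 42.3% of all genes did, and the median log2 fold change was -0.31. Irs2 and Insr, also known FOXO targets, are described with the members.

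**Figure D2:**
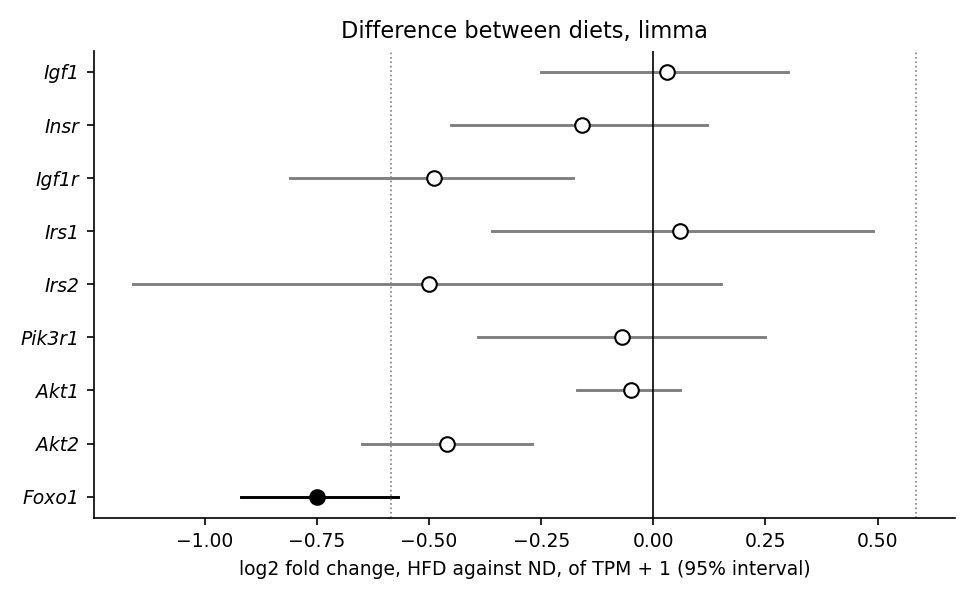
Log2 fold change of TPM + 1, HFD against ND, of the 9 genes from limma, with 95% intervals as lines and the 1.5-fold limits dotted. Only Foxo1 (filled) was called, while the intervals of Akt2 and Igf1r also lie below 0 and that of Irs2 is the widest.

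The AKT kinases act upstream of FOXO1. Akt1 lies at chr12:112653821-112674884 on the minus strand and Akt2 at chr7:27591552-27640826 on the plus strand. Akt1, the widely expressed one, was nearly level at 102.1 and 103.6 TPM with ND and 98.8 and 99.2 TPM with HFD. Both HFD values were lower, but the log2 fold change was -0.05 (95% interval -0.17 to 0.06, adjusted p = 0.38 in limma). Akt2, the form best known from insulin-driven glucose uptake, had 21.4 and 22.4 TPM with ND and 15.9 and 15.4 TPM with HFD. Its mean fell by 28.5%, a log2 fold change of -0.46 (standard error 0.06, 95% interval -0.65 to -0.27, adjusted p = 0.0233 in limma), which is a change of 1.38-fold and short of the 1.5-fold limit. The adjusted p of Akt2 was 0.183 and 0.185 in limma without ND replicate 1 or 2, 0.0537 without HFD replicate 1, 0.0499 without HFD replicate 2 and 0.0508 with median-ratio scaling. The ratio of Akt2 to Akt1 was 0.21 and 0.216 in ND and 0.161 and 0.155 in HFD, a log2 difference of -0.43 with an SD within a diet of at most 0.04. The sums of immune cell genes given with Foxo1 also stand beside the lower values of Akt2 and Igf1r, and their part in these was not tested.

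Insr was near the middle of the genes tested, above 44.9% of them, and Igf1r was low, above 18.1%. Insr lies at chr8:3122061-3279617 on the minus strand and Igf1r at chr7:67952827-68233668 on the plus strand. Insr, the insulin receptor, had 7.4 and 8.2 TPM with ND and 7.1 and 6.6 TPM with HFD, close together but without overlap (log2 fold change -0.16, 95% interval -0.45 to 0.12, adjusted p = 0.296 in limma). Igf1r, the IGF1 receptor, had 2.7 and 2.9 TPM with ND against 1.8 and 1.6 TPM with HFD. Its mean was lower by 39.3% in TPM (2.80 ± 0.141 against 1.70 ± 0.141, SD, n = 2 each), while on the log2(TPM + 1) scale, which shrinks changes of low genes, the difference was -0.49 (95% interval -0.81 to -0.18). The adjusted p of Igf1r was 0.0505 in limma, just outside the limit, and the values rested on roughly 646 and 802 reads with ND, against 488 and 378 with HFD. The ratio of Insr to Igf1r was 2.74 and 2.83 in ND and 3.94 and 4.12 in HFD, a log2 difference of 0.54 with an SD of at most 0.05 within a diet.

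Igf1, the ligand, did not differ between the diets beyond its spread. The gene lies at chr10:87858265-87937042 on the plus strand, and it had 8.8 and 9.9 TPM with ND and 9.7 and 9.4 TPM with HFD, so both HFD values lay between the ND values. The log2 fold change was 0.03 (95% interval -0.25 to 0.30, adjusted p = 0.834 in limma), and its sign turned under quantile normalization (-0.028). The genes of insulin itself, Ins1 and Ins2, were listed at 0 in all 4 samples. Macrophages and fibroblasts both make Igf1, and in the same samples the 6 resident macrophage genes fell from 3451 and 3511 TPM together to 859 and 586 TPM. The 8 genes of lipid-associated macrophages rose from 1299 and 1346 TPM to 8794 and 9227 TPM, and the fibroblast sum was also higher in HFD (above). The part of each in the level of Igf1 was not tested.

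The adaptors Irs1 and Irs2 were far apart in level. Irs2 stood at 108.9 and 120.8 TPM in the ND replicates, and its HFD values were both lower but far apart (replicate 1 at 66.6 and replicate 2 at 97.5 TPM). The log2 fold change was -0.50 (standard error 0.22, 95% interval -1.16 to 0.15, adjusted p = 0.189 in limma). Leaving out HFD replicate 1 gave -0.23, and leaving out HFD replicate 2 gave -0.78 (adjusted p = 0.216 and 0.0514 in limma), so the size of the difference rested on which HFD sample was used. Irs2 lies at chr8:10984681-11008458 on the minus strand. The gene 9530052E02Rik, which lies on the opposite strand and shares 162 bases of exon with Irs2, had 25.5, 26.5, 15.6 and 22.7 TPM in the same order. Irs2 is thus uncertain to the extent that reads of the pair were not separated.

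Some genes of dendritic cells had their HFD replicates in the same order as Irs2. Ccr7, a homing receptor of mature dendritic cells, had 40.3, 41.6, 16.7 and 36.6 TPM (ND replicates, then HFD replicates 1 and 2). Flt3, a growth factor receptor of their precursors, had 9.4, 10.3, 5.2 and 8.2 TPM, Xcr1 9.0, 8.9, 3.9 and 5.9 TPM and Clec9a 6.0, 6.1, 3.4 and 5.5 TPM. Cd209a, the most abundant of the list, ran the other way in HFD at 65.0 and 58.0 TPM, and Zbtb46 was at 1.8 and 1.9 TPM. The 6 genes of this list summed to 436 and 464 TPM with ND and 96 and 116 TPM with HFD, with 2 of the 6 called lower (Cd209a and Zbtb46), and their part in the values of Irs2 was not tested. With 2 HFD samples only 2 orders are possible, and the order of Irs2 is not particular to this list. In HFD replicates 1 and 2 the T cell sum was 25.4 and 40 TPM and the fibroblast sum 3096 and 6201 TPM. The sums of NK cells (38.1 and 30.4 TPM) and resident macrophages (859 and 586 TPM) ran the other way.

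Irs1, the adaptor of adipocytes and muscle, was near the floor of the members with 1.9 and 2.0 TPM with ND and 1.8 and 2.4 TPM with HFD. The diets overlapped (log2 fold change 0.06, 95% interval -0.36 to 0.49, adjusted p = 0.765 in limma). Irs1 lies at chr1:82233101-82291416 on the minus strand, and the gene Gm9747 of the opposite strand, not listed here, shares 2822 bases of its exons. Adipocyte genes were present in the fraction, with 7 of them holding 50.2 and 49.5 TPM with ND and 21.6 and 14.8 TPM with HFD. They went both ways: Cfd (26.3 and 24.6 TPM against 0.9 and 0.3 TPM) and Retn were called lower, while Lep, the gene of leptin, was called higher at 0.7 and 1.1 TPM against 4.7 and 3.9 TPM. The part of adipocyte RNA in Irs1 was not tested. Irs2 made up 96.1% to 97.7% of the TPM of the 4 IRS genes. The ratio of Irs2 to Irs1 was 57.3 and 60.4 in ND and 37 and 40.6 in HFD, a log2 difference of -0.60 (SD within a diet at most 0.10).

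Pik3r1 encodes p85α, which links the adaptors to the catalytic subunits of PI3K. The gene lies at chr13:101680563-101768217 on the minus strand, and it had 22.7 and 24.7 TPM with ND and 20.9 and 24.3 TPM with HFD, and the diets overlapped (log2 fold change -0.07, 95% interval -0.39 to 0.25, adjusted p = 0.672 in limma). The catalytic subunits around it shifted. Pik3cb (p110β) rose from 6.6 and 7.2 TPM to 18.4 and 18.0 TPM (1.28, adjusted p = 0.00703 in limma), and its share of the 4 catalytic genes went from 17.3% in both ND samples to 40.2% and 40.7% in HFD. Pik3cd and Pik3cg, the subunits known from leukocytes, were lower at -0.57 and -0.51 (adjusted p = 0.0214 and 0.038), short of 1.5-fold, and Pik3ca was at 12.1 to 13.8 TPM in all samples. The ratio of Pik3r1 to the sum of Pik3ca, Pik3cb and Pik3cd was 0.811 and 0.81 in ND and 0.546 and 0.65 in HFD (log2 difference -0.44, SD in HFD 0.18).

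**Figure D3:**
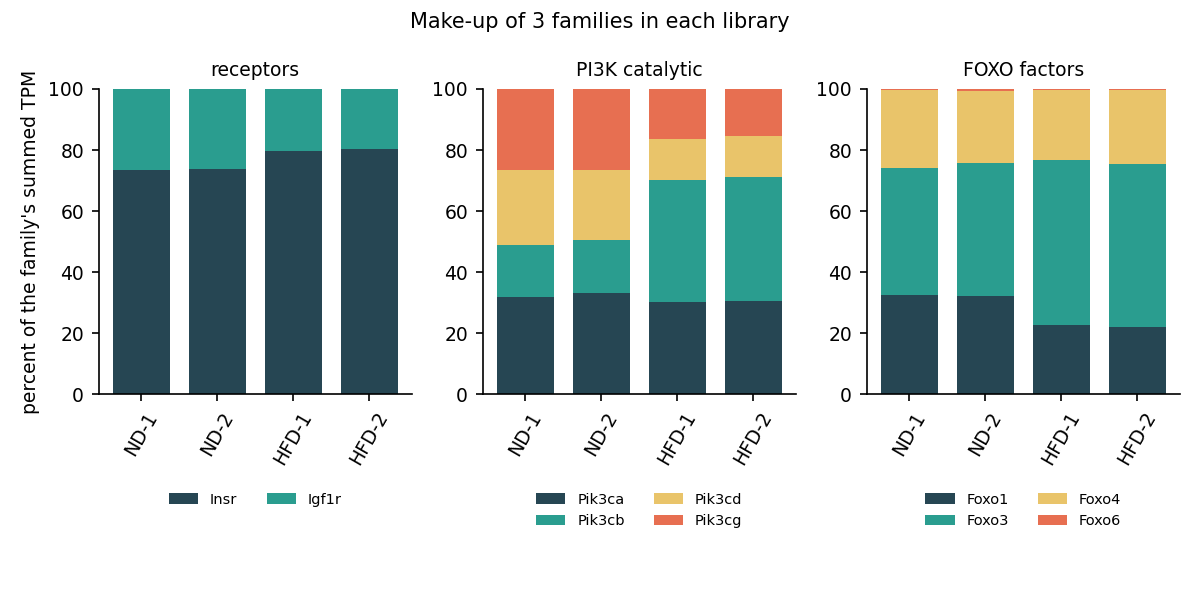
Stacked bars of each gene's percent of its family's summed TPM, for the receptors, the PI3K catalytic subunits and the FOXO factors, in the 4 samples. Pik3cb takes about the same share in both HFD samples (40.2% and 40.7%), above that in ND (17.3%), while Foxo1 takes a smaller one in HFD.

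Of 79 further genes of the pathway, set out in lists by role, 70 were tested, and 11 were called higher and 10 lower, where 8.08% of all genes tested were called higher and 10.3% lower. The median log2 fold change of the 70 was 0.11. Igf2bp2 and Igf2r had the largest changes of the 70. Igf2r, the mannose 6-phosphate receptor, which carries lysosomal enzymes and takes up IGF2 for breakdown, rose from 26.3 and 29.4 TPM to 249.2 and 255.0 TPM (log2 fold change 3.14, standard error 0.07, adjusted p = 0.00378 in limma). Igf2bp2, which binds mRNA and not the growth factor, rose from 2.1 and 2.6 TPM to 95.4 and 94.9 TPM (4.85). Insrr, the other receptor gene of the lists, was at most 0.1 TPM.

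Of 8 genes tested in the list of ligands and binding proteins, 3 were called lower and 1 higher (Igf2bp2), and the median log2 fold change was 0.23. Igf2, a fetal growth factor, fell from 2.2 and 1.9 TPM to 0.4 and 0.3 TPM (-1.18, adjusted p = 0.014 in limma). Igfbp3, which carries IGF1 in blood, fell from 19.6 TPM in both ND samples to 9.3 and 10.4 TPM (-0.93, adjusted p = 0.0115). Igfbp4, which holds IGF1 back from its receptor, fell from 835.3 and 828.5 TPM to 343.0 and 459.6 TPM (-1.07, adjusted p = 0.0282). Igfbp7 was at 186.1 and 183.1 TPM with ND and 265.3 and 415.0 TPM with HFD, and Igfbp6 at 108.8 and 103.0 TPM against 107.4 and 204.1 TPM, without a call. In both, HFD replicate 2 was the highest sample, as it was in the fibroblast sum. In HFD replicate 1 that sum was also above ND (3096 against 609 and 653 TPM), with Igfbp7 above its ND values and Igfbp6 between them. The part of fibroblasts in these genes was not tested.

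Among the adaptors, 2 of 7 tested were called higher and 0 lower. Gab2, a docking protein of immune cells, rose from 20.3 and 22.7 TPM to 40.2 and 35.9 TPM (0.80, adjusted p = 0.0193 in limma), and Sh2b2 rose from 3.9 and 4.1 TPM to 6.4 and 8.0 TPM (0.71, adjusted p = 0.0421). Of 10 PI3K genes, 3 were called higher and 1 lower. Besides Pik3cb, the higher ones were Pik3ap1 (BCAP, an adaptor that couples PI3K to immune receptors) at 0.80 and Pik3r5 (p101) at 0.74. The lower one was Pik3r6 (p84), from 10.3 and 10.8 TPM to 6.2 and 5.3 TPM (-0.78, adjusted p = 0.0228). Pik3r5 and Pik3r6 are the alternative partners of the same catalytic subunit, p110γ, and they moved in opposite directions.

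In the list of the AKT arm, with Pdpk1, Mtor, Tsc1, Tsc2, Gsk3a and Gsk3b among its 12 genes, 0 of 12 were called. In limma 3 of them had an unadjusted p under 0.05 (Rptor, Gsk3b and Tbc1d4), where 42.3% of all genes did, and on the adjusted p alone 1 passed, Rptor at 0.46 (adjusted p = 0.0462), which is 1.37-fold. Rptor belongs to the mTOR complex that AKT turns on. Among 14 genes tested that restrain the pathway, 1 was called higher and 3 lower. Socs3, which blocks cytokine and insulin receptor signaling, fell from 615.8 and 613.6 TPM to 332.4 and 354.1 TPM (-0.84, adjusted p = 0.00626 in limma). Socs2 (-0.67) and the AKT phosphatase Phlpp2 (-0.65) also fell, and Trib3, a pseudokinase that binds AKT, rose (0.81, adjusted p = 0.0271).

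Of 4 glucose transporter genes 1 was called higher and 1 lower. Slc2a1 (GLUT1), the transporter most cells use, rose from 27.6 and 27.2 TPM to 41.0 and 47.5 TPM (0.67, adjusted p = 0.0236 in limma). Slc2a6 fell from 26.3 and 29.6 TPM to 13.5 and 14.8 TPM (-0.93, adjusted p = 0.0143). Slc2a4 (GLUT4), the insulin-driven transporter of fat and muscle, was at 1.1 TPM in both ND samples and at 0.7 and 0.5 TPM with HFD, without a call (-0.40, adjusted p = 0.101). Slc2a3 (GLUT3), known from neurons, leukocytes and sperm, was also not called, with HFD replicates at 19.1 and 5.1 TPM on either side of the ND values (14.6 and 14.9 TPM). The spermatid sum was also higher in HFD replicate 1 than in replicate 2 (6577 against 2023 TPM). In replicate 2 this sum was above those of both ND samples (1757 and 1773 TPM), while Slc2a3 was below both ND values. The part of spermatid RNA in Slc2a3 was not tested.

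**Figure D4:**
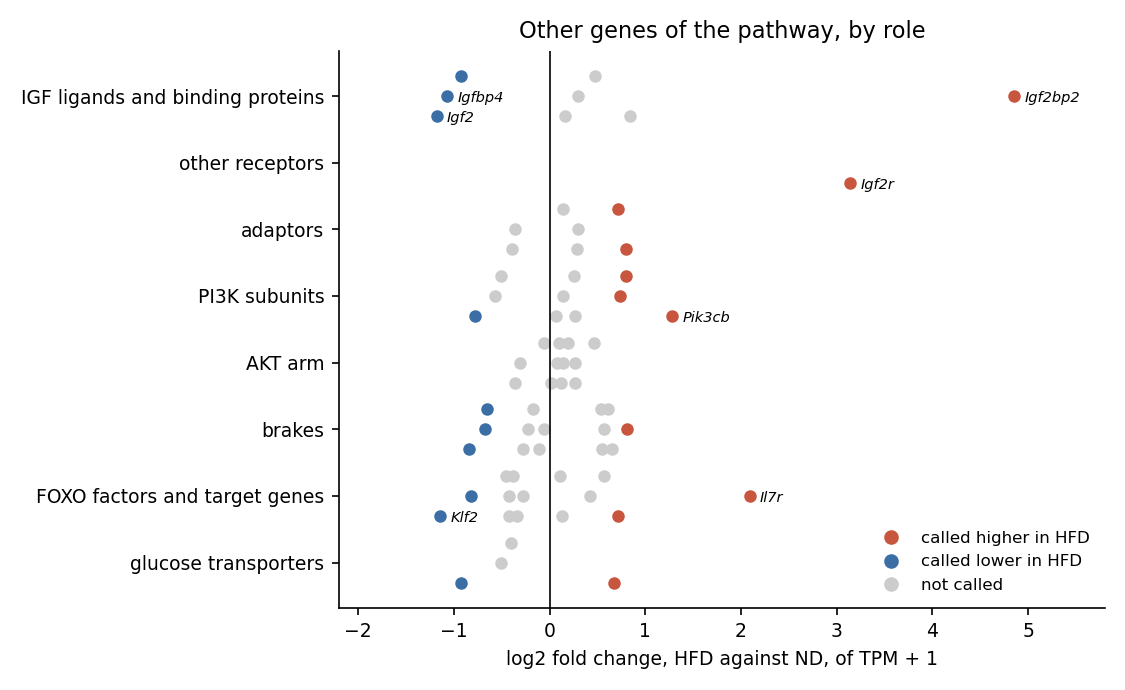
Log2 fold change of TPM + 1, HFD against ND, of the 70 further genes tested, one point a gene, by role in the pathway. Red points were called higher and blue lower in HFD, with the names of the largest called changes, where Igf2bp2 (4.85) and Igf2r (3.14) lie farthest from 0 and the AKT arm holds grey points only.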

How the data were processed

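RNA-seq libraries of CD45+ cells from eWAT were made with a stranded mRNA kit (2 ND, 2 HFD). Per the submitters' processing notes and the paper's methods, reads were trimmed with Trim Galore 0.4.2 and cutadapt 1.9.1, aligned to mm10 with STAR 2.6.1e, stripped of duplicates and counted with featureCounts 1.6.2. The authors divided the counts by gene length and deposited TPM, printed to 1 decimal. The annotation and the use of strand are not given in the sources used here.

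TPM were joined by symbol and compared as log2(TPM + 1) with limma 3.58.1 (R 4.3.3, eBayes with a variance trend, group means) over genes with at least 1 TPM in at least 2 samples, with Benjamini-Hochberg adjustment over all 16849. No count model was used, since TPM are not counts. The fit was tested on simulated data, where 99% of 200 genes changed by 1 on the log2 scale were called among 16849 genes, with 5 false calls. That change is larger than any member's, the noise was normal and alike in both diets, and the other genes were unchanged. The simulation thus does not give the error rate of calls in these samples.

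Read numbers are approximate: they use exon lengths of GENCODE vM21 and the smallest step of 179 to 223 microRNA genes a sample, whose values all fell on whole multiples of it within the rounding of the file plus 2% of the step.

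Named were all 9 members, the called genes of each list with the largest changes (at most 4), genes a reader would look for, and the 3 nearest genes of a called member, by the Euclidean distance of 4 centred values. Members, lists and tests were chosen with earlier results of these data known. Genes named beyond this rule were chosen after their values were seen. The alternatives were other pseudocounts (0.1 and 5), filters, scalings and fold limits, no variance trend, a replicate block and each sample left out. Figures were drawn with matplotlib 3.10.9. A few genes of the lists are not reported here and are in none of the list counts. Other assays of the paper were not analysed here.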

Additional observations from a re-analysis of the deposited data

How the results depend on the processing

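The log2 fold change of Foxo1 kept its sign under all 9 other fits that used every sample (-0.84 to -0.65, adjusted p in limma 0.00599 to 0.06), and it was called under 8 of them. The exception was the replicate block, which gave -0.75 with an adjusted p of 0.06. Leaving out each sample in turn gave -0.78 to -0.71, with the call lost without either ND replicate. Akt2 ran from -0.54 to -0.38 (adjusted p 0.0145 to 0.106) and Igf1r from -0.69 with a pseudocount of 0.1 to -0.22 with one of 5 (adjusted p 0.0344 to 0.172), over 9 and 8 alternatives and without a call. Igf1r and Irs1 have no value at a mean TPM of at least 5, which they do not reach. Signs turned for members near 0. Igf1 was at -0.028 after quantile normalization and -0.026 without the 50 most abundant genes, and from -0.047 to 0.11 with 1 sample left out, and with 1 sample left out Irs1 ran from -0.075 to 0.21 and Pik3r1 from -0.17 to 0.036.

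The number of members called lower was 1, and it was 0 with the replicate block or a change of at least 2-fold, 2 without a fold limit, and 0 to 1 with 1 sample left out. The 11 further genes called higher became 7 without a filter or with median-ratio scaling, 3 with the block, 17 without a fold limit, 4 at 2-fold, and 0 to 14 with 1 sample left out. The 10 called lower became 6 with a pseudocount of 5, 2 with the block, 3 at 2-fold, and 0 to 10 with 1 sample left out. With 1 sample left out, each 0 came from leaving out an ND sample, where the lone ND sample is assumed to vary like the HFD pair and no gene of all 16849 was called. Samples of the same replicate number did not deviate together (a correlation of -0.015 over the genes tested), and no pairing was assumed. The block lowered the calls over all genes from 3097 to 812. The cause of these shifts was not tested. Values printed to 1 decimal limit the precision of Irs1 and Igf1r.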
